A study of Homo sapiens with 9 samples.

Results

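The NR4A orphan nuclear receptors NR4A1, NR4A2 and NR4A3 were followed across microarrays (Affymetrix) of A549, a line from a human lung adenocarcinoma. The probe sets were chosen by annotation alone: each one named for exactly 1 of these genes was kept, which gave 9 probe sets, 3 per gene, of 41091 that name 1 gene. They stand for 3 of 19775 genes. The series holds 9 arrays in 3 groups of 3. The si-Med23 cells carried an RNA interference oligo against MED23 (oligos A, B and C, 1 per array), a Mediator tail subunit. The si-Elk1 cells carried an oligo against ELK1 (again A, B and C), an ETS transcription factor that can contact MED23 once ERK has phosphorylated it. The si-Ctrl cells carried a control oligo in replicates 1, 2 and 3. All groups were A549 cells grown in serum-containing medium with no added stimulus. The knockdown samples are described as different cell lines, 1 per oligo, so the spread within a knockdown also holds the spread between oligos. Whether the si-Ctrl replicates were separate cultures is not stated, so the p-values rest on a spread that may be technical.

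NR4A receptors bind DNA, often as monomers, at an element called the NBRE, and no ligand is needed for their activity because bulky side chains fill the ligand pocket. Their output is therefore set largely by how much receptor is made. All 3 genes are immediate-early genes: cAMP acting through CREB, calcium acting through MEF2, and growth factors acting through ERK induce them within minutes, and the transcripts decay quickly. NR4A1 (Nur77) is known for roles in cell death, in T cells and in steroid-producing tissue, NR4A2 (Nurr1) for the making and upkeep of dopamine neurons, and NR4A3 (NOR1) for growth of vessel wall and blood cells.

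The sequence just before the transcription start is shown for NR4A1 and NR4A3 as a description. The study reduced ELK1, an ETS factor, and cAMP induces NR4A genes through CREB. Whether any inducer acts within these windows was not tested. The RefSeq promoter table (GRCh38.p14) matched 2 of the 3 genes, with 3 start sites in all. The 250 bases before each start are printed 5′ to 3′ on the plus strand, which is the coding strand. Capitals mark the core of the cAMP response element, TGACG or its reverse complement CGTCA. They also mark CCGGAA or its reverse complement TTCCGG, called the ETS motif here. Shorter ETS matches, such as GGAA alone, were not marked. The upstream NR4A1 start lies after chr12:52022582-52022831, the downstream one after chr12:52037465-52037714, and the NR4A3 start after chr9:99821635-99821884.
NR4A1 upstream start: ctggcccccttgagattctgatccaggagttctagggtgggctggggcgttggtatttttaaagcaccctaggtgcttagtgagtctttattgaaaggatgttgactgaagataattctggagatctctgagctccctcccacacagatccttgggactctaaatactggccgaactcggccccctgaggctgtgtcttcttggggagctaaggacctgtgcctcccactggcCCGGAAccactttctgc
NR4A1 downstream start: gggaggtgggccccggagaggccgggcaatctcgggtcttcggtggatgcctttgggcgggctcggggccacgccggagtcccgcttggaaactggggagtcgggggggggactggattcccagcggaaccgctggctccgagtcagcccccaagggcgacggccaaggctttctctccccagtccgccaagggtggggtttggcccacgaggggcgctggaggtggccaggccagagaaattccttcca
NR4A3 start: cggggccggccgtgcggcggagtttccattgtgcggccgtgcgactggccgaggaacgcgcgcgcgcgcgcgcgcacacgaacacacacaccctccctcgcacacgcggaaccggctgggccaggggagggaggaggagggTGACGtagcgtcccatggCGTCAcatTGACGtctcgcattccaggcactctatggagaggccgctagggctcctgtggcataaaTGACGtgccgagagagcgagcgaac

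The NR4A3 window held no ETS motif and 4 cores of the cAMP response element, on either strand. They began 109, 91, 83 and 25 bases before the start. Of 35116 such windows in the table, 21.2% held at least 1 TGACG or CGTCA. The upstream NR4A1 window held 1 ETS motif, which began 17 bases before the start (14.5% of all windows held at least 1). Neither NR4A1 window held the cAMP core. Sequence outside the windows, including any other NR4A1 start, was not searched. The full element TGACGTCA, which contains the core (1.65% of windows), the NBRE AAAGGTCA on either strand (1.05%) and the CArG box bound by SRF (1.16%) were in none of the 3 windows. Such a match is a description of the letters, not of a bound site.

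Signals were analysed as log2(signal + 1), called the log2 signal here. For the gene-level test, each gene was represented by its brightest probe set on average, and a gene dimmer than the median probe set (mean log2 6.05, a signal of 65.4, called the filter level) was left out. The filter level is not a detection call. That left 12616 genes. NR4A1 (202340_x_at) and NR4A2 (204622_x_at) passed this filter and NR4A3 did not. Every NR4A probe set was also tested in a fit over all 54613 probe sets with no filter. Calls use a limma p-value adjusted by Benjamini-Hochberg under 0.05.

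The array medians lay between 64.7 and 88.0 in linear signal. MED23 read log2 6.79, 6.19 and 7.06 in si-Med23, against 9.27, 9.05 and 9.08 in si-Ctrl, and ELK1 read 7.07, 7.15 and 7.83 in si-Elk1, against 9.36, 9.61 and 9.29 in si-Ctrl. In the opposite knockdown, MED23 read 8.87, 9.02 and 8.18 in si-Elk1, and ELK1 read 9.98, 10.36 and 9.54 in si-Med23. Of 14 A549 and lung epithelial markers named on the array, 13 lay at or above the filter level on all arrays, the exception being NKX2-1. Of other cells, 3 of 7 blood, 1 of 5 endothelial and 2 of 6 fibroblast markers did so. They were CD14, ITGAM and CD79A for blood, PECAM1 for endothelium, and COL1A1 and THY1 for fibroblasts. PTPRC, the pan-leukocyte marker, and LYZ lay under the filter level on average. CD14 averaged log2 9.33 in si-Med23, 9.45 in si-Elk1 and 7.68 in si-Ctrl, while ITGAM and CD79A averaged lower in si-Med23 than in si-Ctrl. The summed blood marker signal ran from 1055 to 1464 in si-Med23, from 1542 to 1693 in si-Elk1 and from 822 to 1125 in si-Ctrl. For the fibroblast markers it ran from 1927 to 2890 in si-Med23, from 1544 to 1949 in si-Elk1 and from 932 to 970 in si-Ctrl. COL1A1 and THY1 averaged higher in si-Med23 than in si-Ctrl, and COL1A2, COL3A1, PDGFRB and DCN averaged lower. The epithelial sum ran from 242749 to 298410 in si-Med23, from 211724 to 254097 in si-Elk1 and from 192751 to 212169 in si-Ctrl. The part of these markers in the NR4A values was not tested, and in such bulk RNA fewer cells of a type cannot be told apart from less RNA per cell. Poly-A spikes, bacterial transcripts added before labelling, averaged log2 9.22 ± 0.12 in si-Med23, 8.25 ± 0.29 in si-Elk1 and 7.61 ± 0.20 in si-Ctrl (SD, n = 3 arrays each). The hybridization controls averaged 12.33 ± 0.06, 12.01 ± 0.10 and 11.83 ± 0.06 in the same groups. Each of these differences between groups had an exact permutation p = 0.1 (two-sided), the smallest that 3 against 3 arrays allow. A direction here is one relative to the array's trimmed mean, and scalings that turn it are named with it. Scaling to the poly-A spikes lowers log2 fold changes by 1.61 in si-Med23 minus si-Ctrl, by 0.64 in si-Elk1 minus si-Ctrl and by 0.97 in si-Med23 minus si-Elk1.

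NR4A2 differed between the knockdowns. It was lower in si-Med23 than in si-Elk1 on all 3 of its probe sets, with si-Ctrl between them in the group means. On its main probe set, 204622_x_at, the log2 signals were 7.37, 7.69 and 7.16 with si-Med23 oligos A, B and C. They were 8.59, 8.72 and 8.44 with the si-Elk1 oligos and 7.91, 7.74 and 8.16 in the si-Ctrl replicates. Every si-Med23 array lay below every si-Ctrl array, as for 25.6% of all genes tested, and every si-Elk1 array lay above every si-Ctrl array, as for 21.1%.

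Between the knockdowns the log2 fold change of NR4A2 was -1.18 ± 0.17 (SE, n = 3 arrays per group), so NR4A2 was 2.26-fold lower in si-Med23 than in si-Elk1 (limma adjusted p = 0.00644). In that comparison 21.7% of tested genes passed, 12.2% as lower, and 4.9% passed with a fall of at least 2-fold. In the gene-level test NR4A2 passed under all 21 alternatives that gave it a value, with log2 fold changes from -2.15 to -0.81 and adjusted p from 0.000447 to 0.0277. The largest fall and the lowest p came with poly-A spike scaling, under which most tested genes passed as lower. In 19.5% of genes, as in NR4A2, all si-Med23 arrays lay below all si-Elk1 arrays. The alternatives included leaving out each of the 9 arrays in turn. In the separate fit over all 54613 probe sets the same probe set did not pass (limma adjusted p = 0.0555).

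Against si-Ctrl, NR4A2 fell in si-Med23 by 0.53 on the log2 scale (SE 0.17, 95% interval -0.93 to -0.14, limma adjusted p = 0.0373), in a comparison where 39.8% of genes passed and 19.5% passed as lower. That call was lost without si-Med23 oligo A (adjusted p = 0.0871) or C (0.109), without si-Elk1 oligo A (0.0539) and without si-Ctrl replicate 1 (0.0816) or 3 (0.129). It passed under only 9 of 21 alternatives, among which adjusted p ran from 3.66e-05 to 0.205, and was lost after quantile normalization or median centring. The lowest of these p came with poly-A spike scaling, where the value was -2.14 and most tested genes passed as lower. With hybridization control scaling the value was -1.03. In si-Elk1, NR4A2 had a log2 fold change of 0.65 ± 0.17 against si-Ctrl (95% interval 0.25 to 1.04), 1.56-fold, which did not pass (limma adjusted p = 0.0690; 4.26% of genes passed, 3.07% as higher). With poly-A spike scaling this difference was 0.0062. The order of the group means was therefore si-Med23, si-Ctrl and si-Elk1 from low to high. Its ends differed under each setting of the gene-level test but not in the fit over all probe sets, whereas the step from si-Ctrl to si-Elk1 did not pass and the step from si-Med23 to si-Ctrl passed only in part of the settings.

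The other NR4A2 probe sets repeat the order of the means. On 204621_s_at the log2 signals were 6.83, 7.04 and 6.14 in si-Med23, 7.88, 8.14 and 8.07 in si-Elk1 and 7.13, 7.11 and 7.12 in si-Ctrl. The groups did not overlap, and oligo C gave the lowest si-Med23 value. On 216248_s_at they were 7.31, 7.78 and 7.39 in si-Med23, 8.64, 8.45 and 7.96 in si-Elk1 and 7.86, 7.74 and 7.34 in si-Ctrl. Here si-Med23 and si-Ctrl overlapped, and every si-Elk1 array lay above both. Of all probe sets, 12.8% had every si-Elk1 array above every si-Ctrl array. All si-Med23 arrays lay below all si-Elk1 arrays in 17.3%, and below all si-Ctrl arrays in 19.8%. In the fit over all probe sets the si-Med23 minus si-Elk1 log2 fold changes were -1.36 ± 0.25 for 204621_s_at and -0.85 ± 0.26 for 216248_s_at (SE, n = 3 arrays per group). The limma adjusted p values were 0.0574 and 0.123, and that of 204622_x_at in the same fit was 0.0555, where 0.419% of all probe sets passed. The -0.15 of 216248_s_at in si-Med23 minus si-Ctrl turned to 0.08 with median centring and to 0.0055 after quantile normalization. All 3 probe sets have suffixes that mark sequence shared between transcripts or with other genes.

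**Figure D1:**
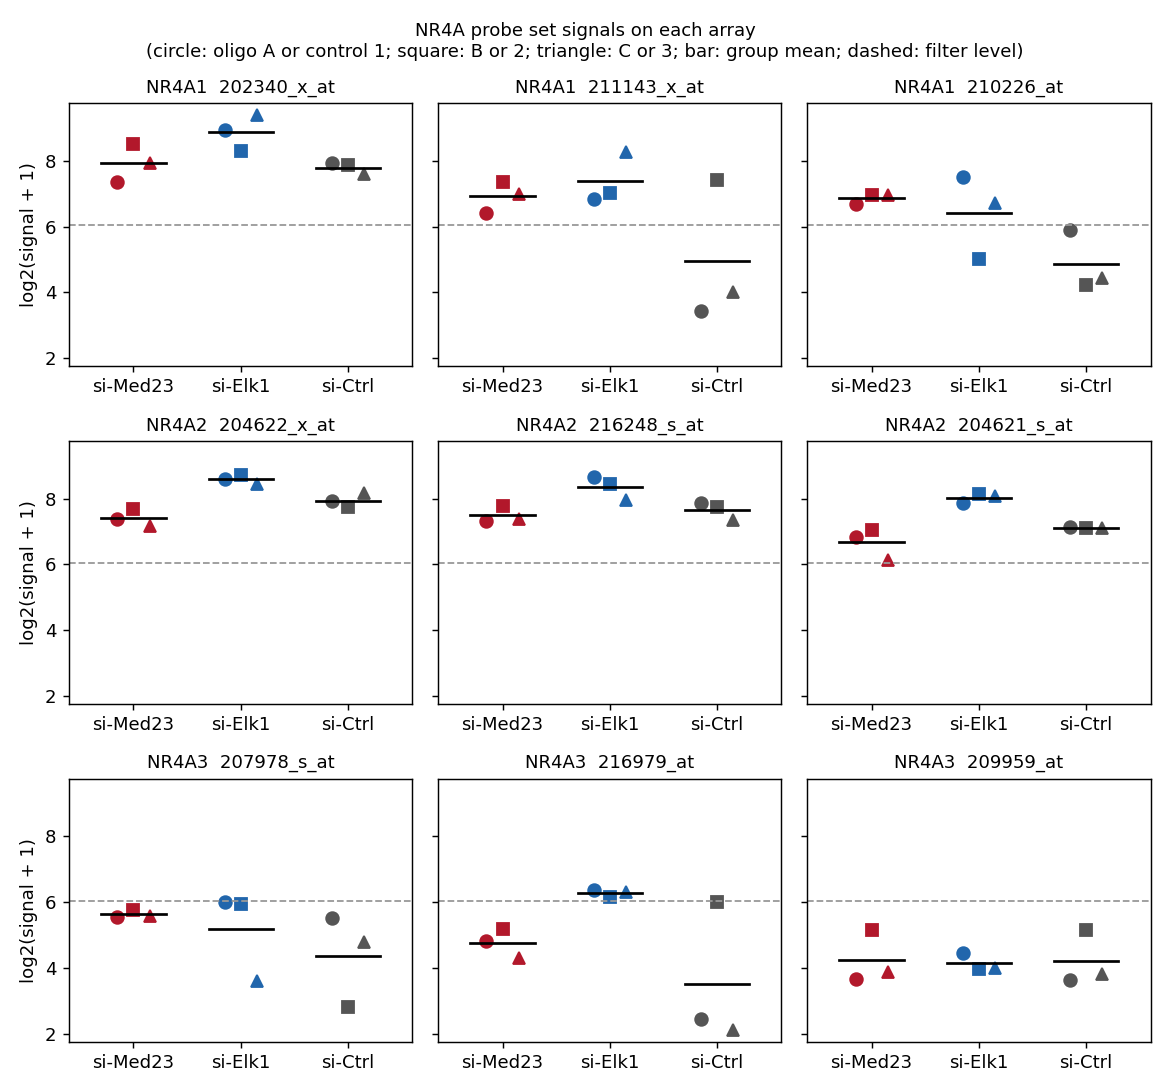
Log2(signal + 1) of the 9 NR4A probe sets on each array, by group from left to right si-Med23, si-Elk1 and si-Ctrl; points are arrays, bars are group means and the dashed line is the filter level of 6.05. The NR4A2 probe sets sit above the line on all 9 arrays, with si-Elk1 highest, while no array reaches the line for NR4A3 on 207978_s_at or 209959_at.

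On its main probe set NR4A1 averaged highest in si-Elk1, but no difference passed. On 202340_x_at the log2 signals were 7.35, 8.51 and 7.93 in si-Med23, 8.92, 8.30 and 9.38 in si-Elk1 and 7.91, 7.86 and 7.59 in si-Ctrl. Every si-Elk1 array lay above every si-Ctrl array, as for 21.1% of all genes tested. The si-Med23 arrays lay on both sides of the controls and spread more widely, with oligo A lowest and oligo B highest. The SD was 0.58 in si-Med23, 0.54 in si-Elk1 and 0.17 in si-Ctrl.

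Against si-Ctrl the log2 fold change of NR4A1 in si-Elk1 was 1.08 ± 0.33 (SE, n = 3 arrays per group; 95% interval 0.32 to 1.83), 2.11-fold, with a limma adjusted p = 0.0942. It kept its sign under all 22 alternatives (0.44 to 1.68) and passed under 1 of them, the stricter filter (adjusted p = 0.0498). In si-Med23 it was 0.14 ± 0.33 (95% interval -0.62 to 0.89, limma adjusted p = 0.758), an interval wide enough to hold a fall or a rise. That value was -1.47 with poly-A spike scaling, which passed as a fall (adjusted p = 0.000787). Under that scaling most tested genes passed as lower in this comparison, so the call says little about NR4A1 itself. The value was -0.36 with hybridization control scaling and -0.15 without si-Med23 oligo B. Between the knockdowns it was -0.94 ± 0.33 (limma adjusted p = 0.0724). The order of the means was si-Ctrl, si-Med23 and si-Elk1, and no neighbours in it differed beyond the test. Without si-Med23 oligo B the difference between the knockdowns passed, at -1.23 (adjusted p = 0.0498).

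The other NR4A1 probe sets were dimmer and put both knockdowns mostly above the controls. On 211143_x_at the log2 signals were 6.41, 7.35 and 6.999 in si-Med23, 6.84, 7.01 and 8.27 in si-Elk1 and 3.45, 7.40 and 4.03 in si-Ctrl. Replicate 2 of the controls thus lay among the knockdown arrays and the other control arrays far below the filter level. On 210226_at they were 6.69, 6.96 and 6.96 in si-Med23, 7.49, 5.02 and 6.70 in si-Elk1 and 5.90, 4.24 and 4.43 in si-Ctrl. There every si-Med23 array exceeded every control, as for 15.9% of all probe sets, while si-Elk1 oligo B lay among the controls. The fitted si-Med23 minus si-Ctrl log2 fold changes were 1.96 for 211143_x_at and 2.01 for 210226_at (limma adjusted p = 0.254 and 0.106 over all probe sets). With signals raised to the filter level they shrank to 0.42 and 0.81, so most of their size came from control values under that level. In si-Elk1 minus si-Ctrl the same probe sets had 2.41 and 1.55, or 0.87 and 0.69 with raised signals. When all probe sets of a gene were averaged, NR4A1 passed in si-Med23 minus si-Ctrl with 1.37 (adjusted p = 0.0292), against 0.14 on the main probe set. The direction of NR4A1 in si-Elk1 minus si-Ctrl was upward on all 3 probe sets under each scaling. The suffix of 202340_x_at and 211143_x_at marks sequence shared with other genes. Between the knockdowns these 2 probe sets had -0.94 and -0.45. The remaining one, 210226_at, had 0.46, which is -0.51 with poly-A spike scaling.

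NR4A3 was near the bottom of the signal range. On 207978_s_at the log2 signals were 5.55, 5.77 and 5.59 in si-Med23, 6.002, 5.95 and 3.61 in si-Elk1 and 5.54, 2.83 and 4.79 in si-Ctrl. None of these reached the filter level, nor did any array on 209959_at, where all values lay between 3.64 and 5.17. The third probe set, 216979_at, read 4.83, 5.19 and 4.30 in si-Med23, 6.38, 6.17 and 6.31 in si-Elk1 and 2.46, 6.01 and 2.14 in si-Ctrl. Every si-Elk1 array was at or above the level, above every si-Ctrl array (12.8% of all probe sets) and above every si-Med23 array (17.3%). Its si-Elk1 minus si-Ctrl log2 fold change was 2.75 ± 0.93 (SE, n = 3 arrays per group; limma adjusted p = 0.346), which came to 0.23 with signals raised to the filter level. No order of NR4A3 across the groups could be read, since its probe sets disagreed and the 95% interval of 207978_s_at in si-Med23 minus si-Ctrl ran from -0.69 to 3.19.

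Across the family, 6 of the 9 probe sets had an unadjusted p under 0.05 in si-Elk1 minus si-Ctrl, where 11.8% of all probe sets did, and 5 had every si-Elk1 array above every si-Ctrl array, where 12.8% did. None had every si-Elk1 array below (9.11% of all). After adjustment 0 of 9 passed (limma adjusted p from 0.267 to 0.973; 0.0787% of all probe sets passed). In si-Med23 minus si-Ctrl, 2 of 9 had an unadjusted p under 0.05 (26.5% of all) and 0 passed adjustment (limma adjusted p from 0.106 to 0.980; 7.89% of all). There 2 had all si-Med23 arrays above all si-Ctrl arrays (15.9% of all) and 2 had them all below (19.8% of all). In si-Med23 minus si-Elk1, 4 of 9 had an unadjusted p under 0.05 (21.7% of all), and all si-Med23 arrays lay below all si-Elk1 arrays for 4 (17.3% of all) and above them for 0 (10.1% of all). No probe set passed adjustment there either (limma adjusted p from 0.0555 to 0.936). The probe sets of a gene share its transcript and are not independent, and the comparisons share arrays. The median log2 fold change of the 9 was 0.91 in si-Elk1 minus si-Ctrl, beside 0.07 over all probe sets, and -0.85 in si-Med23 minus si-Elk1, beside -0.18.

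**Figure D2:**
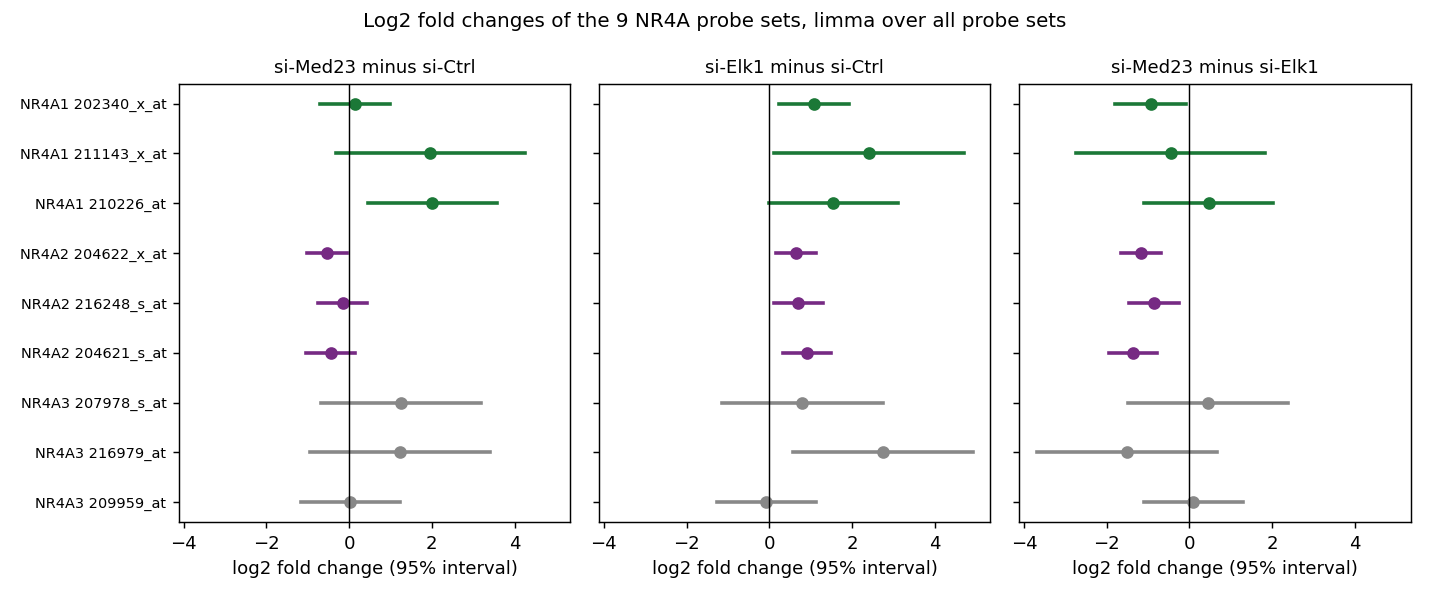
Log2 fold changes of the 9 NR4A probe sets (points) with 95% intervals (lines) from limma over all probe sets, in the 3 comparisons. The NR4A2 points lie between -1.36 and -0.85 in si-Med23 minus si-Elk1, and the dim NR4A1 and NR4A3 probe sets have wider intervals than they do.

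The genes whose profile was most like that of each receptor were found by Pearson correlation over the 9 arrays among the genes that passed the filter, as a description. The arrays fall into 3 groups and share their scaling, and with this many genes some correlations are high whatever the pattern. For NR4A2 they were PDE3A, a phosphodiesterase that breaks down cAMP and is itself inhibited by cGMP (r = 0.963), SESN3, a sestrin of the stress response (0.962), the semaphorin receptor PLXND1 (0.961), TCAF1 (0.958) and CNEP1R1 (0.953). For NR4A1 they were the pseudogene HADHAP1 (0.961), the noncoding RNAs GAS6-AS1 (0.951) and LINC00868 (0.949), the transcription factor gene HES4 (0.945) and TAGLN, an actin-binding smooth muscle protein (0.943). For NR4A3, whose values lay under the filter level, they were led by MEST (0.972) and FLJ42627 (0.936), followed by SSH2 (0.899), KRABD5 (0.869) and ZBTB37 (0.861). No gene stood in more than 1 of these groups of 5.

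**Figure D3:**
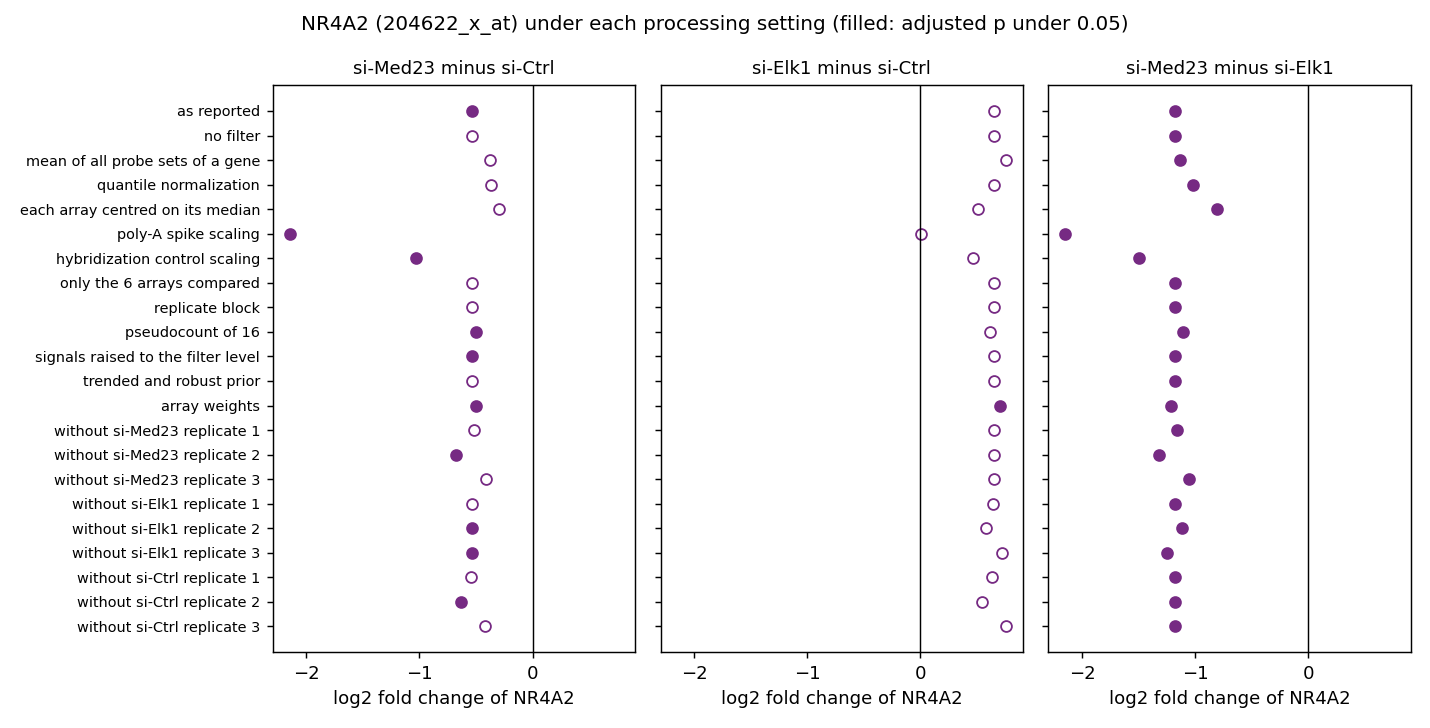
NR4A2 log2 fold change (204622_x_at, or the mean of its probe sets) under each processing setting, 1 panel per comparison, where knockdown replicates 1, 2 and 3 are oligos A, B and C; filled points passed at an adjusted p under 0.05. In si-Med23 minus si-Elk1 every point is filled and negative, while in si-Med23 minus si-Ctrl 9 of 21 alternatives are filled.

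Genes that respond to cAMP through CREB, the route best known to induce NR4A genes, were counted from a list of 18, of which 12 were tested. Between the knockdowns 0 rose and 4 fell (33.3%, beside 21.7% of all genes, 9.54% higher and 12.2% lower), with a median log2 fold change of -0.24 beside -0.03 over all genes. The cAMP phosphodiesterase genes PDE4D and PDE4B had log2 fold changes of -1.20 ± 0.25 and -1.05 ± 0.19 in si-Med23 minus si-Elk1 (SE, n = 3 arrays per group; limma adjusted p = 0.0156 and 0.0108). PDE4D lost this call without si-Elk1 oligo A (adjusted p = 0.0588) or B (0.0586), and PDE4B lost it with the mean of all its probe sets, at -0.34. IRS2, an insulin receptor substrate, fell by 0.55 ± 0.10 (adjusted p = 0.0112), but had -0.18 with median centring (0.201). SIK1, a kinase that feeds back on CREB coactivators, fell by 0.47 ± 0.12 (adjusted p = 0.0327), but the call was lost without si-Med23 oligo A or B, si-Elk1 oligo A or B, or si-Ctrl replicate 2, and the value turned positive once probe sets ending in _x_at or _s_at were left out. SIK1 also has a near-identical annotated copy, SIK1B. JUNB, an AP-1 subunit gene, had 0.15 ± 0.24 (adjusted p = 0.662), which is negative with both control scalings and without si-Med23 oligo B.

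Against si-Ctrl the same 12 genes had 1 rise and 3 falls in si-Med23 (33.3%, beside 39.8% of all genes, 20.3% higher and 19.5% lower). PDE4D averaged log2 9.86 ± 0.33 in si-Med23, against 11.19 ± 0.12 in si-Ctrl (SD, n = 3), and PDE4B 10.02 ± 0.10, against 10.996 ± 0.017. JUNB went the other way, with a log2 fold change of 1.15 ± 0.24 (limma adjusted p = 0.00764), which is -0.46 with poly-A spike scaling and loses its call with hybridization control scaling (0.65). In si-Elk1 2 of 12 rose and 0 fell (16.7%, beside 4.26% of all genes, 3.07% higher). IRS2 rose by 0.58 ± 0.10 (limma adjusted p = 0.0207) and SIK1 by 0.55 ± 0.12 (adjusted p = 0.0468), and both are just below 0 with poly-A spike scaling. The SIK1 call was lost when any single array was left out (adjusted p up to 0.153). The IRS2 call was lost with median centring, hybridization control scaling or no filter, and without si-Elk1 oligo A or B or any si-Ctrl replicate (adjusted p up to 0.0908).

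A list of 32 genes that act upstream of NR4A genes held kinases and their subunits, calcineurin, CREB and MEF2 factors, coactivators and class II histone deacetylases. Of these, 30 were tested. In si-Med23 minus si-Ctrl 3 rose and 6 fell (30%, beside 39.8% of all genes). PRKD3, a protein kinase D that can phosphorylate those deacetylases, fell by 1.78 ± 0.40 on the log2 scale (limma adjusted p = 0.0100). The CREB coactivator kinase SIK2 fell by 0.91 ± 0.20 (adjusted p = 0.00926), although its probe sets not ending in _x_at or _s_at gave 0.56 and the mean of all of them -0.24, neither of which passed. PRKD2, a close relative of PRKD3, had 0.60 ± 0.14 (adjusted p = 0.0113), which is -1.01 with poly-A spike scaling and 0.11, not passing, with hybridization control scaling. In si-Elk1 0 of 30 passed (limma, beside 4.26% of all), and the smallest p belonged to the ERK-activated kinase gene RPS6KA2, at 1.31 ± 0.46 (adjusted p = 0.123; 0.74 and 0.0179 with signals raised to the filter level), and to PRKD2, at 0.28 ± 0.14 (adjusted p = 0.257; -0.36 with poly-A spike scaling).

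Of 18 proteins that bind NR4A receptors or act with them, 12 were tested, and in si-Med23 minus si-Ctrl 3 rose and 3 fell (50%, beside 39.8% of all genes). CTNNB1, beta-catenin, had a log2 fold change of 1.07 ± 0.11 (limma adjusted p = 0.00184) and its negative regulator AXIN2 one of 0.80 ± 0.15 (adjusted p = 0.00556), both negative with poly-A spike scaling. The AXIN2 call was lost with hybridization control scaling (0.30). The coactivator gene NCOA2 fell by 1.51 ± 0.31 (adjusted p = 0.00727). In si-Elk1 0 of 12 passed (limma, beside 4.26% of all genes), with AXIN2 at 0.55 ± 0.15 (adjusted p = 0.0776) and RXRB, a retinoid X receptor, at 0.32 ± 0.15 (adjusted p = 0.207), both negative with poly-A spike scaling.

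Genes reported to depend on NR4A receptors were counted next. Of 12 reported in cancer cell lines 9 were tested, and 2 fell and 0 rose in si-Med23 minus si-Ctrl (22.2%, beside 39.8% of all genes and 19.5% called lower, with a median of -0.28 beside 0.09). ITGA6, an integrin of epithelial attachment, fell by 1.49 ± 0.18 (limma adjusted p = 0.00202), and BIRC5, survivin, fell by 0.68 ± 0.12 (adjusted p = 0.00426) but had 0.23 with the mean of all its probe sets. ITGB1, its partner integrin, had -0.33 ± 0.13 (adjusted p = 0.0676) and passed without si-Elk1 oligo C (0.0397) or with the mean of all its probe sets (-1.11), among other settings. In si-Elk1 0 of 9 passed (limma, beside 4.26% of all genes), with E2F1, a factor of S phase entry, at -0.66 ± 0.25 (adjusted p = 0.146) and ITGA6 at -0.41 ± 0.18 (adjusted p = 0.209). Of 25 targets known from dopamine neurons, muscle, liver and the pituitary, several of them first from rodents, 24 were named on the array and 10 tested. The dopamine synthesis and transport genes TH, SLC6A3 and SLC18A2 and the pituitary hormone gene POMC were under the filter level on average over all arrays. In si-Med23 alone SLC6A3 averaged log2 6.51, above that level. The dopamine synthesis genes DDC and GCH1, named here after their values were seen, were above the filter level. DDC averaged log2 8.16 ± 0.16 in si-Med23, 9.15 ± 0.25 in si-Elk1 and 7.96 ± 0.27 in si-Ctrl (SD, n = 3), and its log2 fold change in si-Elk1 minus si-Ctrl was 1.19 ± 0.19 (SE, limma adjusted p = 0.0163). GCH1 averaged 9.78 ± 0.12 in si-Med23, 9.68 ± 0.17 in si-Elk1 and 9.59 ± 0.14 in si-Ctrl and passed in neither knockdown (limma adjusted p = 0.298 and 0.687).

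Against the shared si-Ctrl arrays, 2 of the 10 rose and 1 fell in si-Med23 (30%, beside 39.8% of all genes), and 2 rose and 1 fell in si-Elk1 (30%, beside 4.26%). LPIN1, a phosphatidate phosphatase, averaged log2 9.56 ± 0.10 in si-Med23 and 9.34 ± 0.04 in si-Elk1, against 10.46 ± 0.09 in si-Ctrl (SD, n = 3). Its log2 fold changes were -0.89 ± 0.11 and -1.12 ± 0.11 (SE; limma adjusted p = 0.00202 and 0.00318), and the si-Med23 call was lost with the mean of all its probe sets (-0.31). ENO3, the muscle form of the glycolytic enzyme enolase, had 0.92 ± 0.16 in si-Med23 and 1.06 ± 0.16 in si-Elk1 (limma adjusted p = 0.00441 and 0.0156). The value in si-Med23 is -0.69 with poly-A spike scaling, and the call in si-Elk1 was lost without si-Ctrl replicate 2 (0.0537) or 3 (0.0641) and with poly-A spike scaling (0.42) or no filter (0.0569). With the mean of all its probe sets ENO3 lost both calls, at 0.58 in si-Med23 (adjusted p = 0.386) and 1.02 in si-Elk1 (0.261). ENO1, the common enolase, had 0.45 ± 0.12 in si-Med23 (adjusted p = 0.0171), which is negative with both control scalings. The ENO1 value was 0.07 after quantile normalization (adjusted p = 0.537) and 0.14 without probe sets ending in _x_at or _s_at (0.674), and the call was also lost without si-Med23 oligo B (0.0512) or si-Ctrl replicate 1 (0.0584) or 3 (0.0671). In the same comparisons NR4A2 had -0.53 in si-Med23 and 0.65 in si-Elk1.

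Of 45 nuclear receptors outside the family, 36 were named on the array and 22 tested. There were 6 that rose and 5 that fell in si-Med23 minus si-Ctrl (50%, beside 39.8% of all genes). The orphan receptor NR2C1 fell by 1.26 ± 0.24 (limma adjusted p = 0.00568), the heme-binding clock receptor NR1D2 by 1.45 ± 0.30 (adjusted p = 0.00746) and NR3C1, the glucocorticoid receptor, by 0.94 ± 0.20 (adjusted p = 0.00811). In si-Elk1 1 of 22 passed (4.55%, beside 4.26% of all): the oxysterol receptor NR1H3 rose by 1.04 ± 0.19 (adjusted p = 0.0231), a call lost with poly-A spike scaling (0.40), with no filter and without si-Elk1 oligo A or C or any si-Ctrl replicate (adjusted p up to 0.0846). NR2F1, the next by p, had 0.78 ± 0.23 (adjusted p = 0.0860). Between the knockdowns 1 rose and 4 fell (22.7%, beside 21.7% of all), and the median of the 22 was -0.17, beside -0.03 over all genes.

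Of 34 immediate-early genes that are induced alongside NR4A genes, 28 were tested. Of these, 9 rose and 0 fell in si-Med23 minus si-Ctrl (32.1%, beside 39.8% of all genes, 20.3% higher and 19.5% lower). In that comparison NR4A2 had -0.53, a call that held under only 9 of 21 alternatives, and NR4A1 did not pass. FOSL2, an AP-1 subunit, had 1.03 ± 0.11 (limma adjusted p = 0.00184), the small MAF factor gene MAFF 0.96 ± 0.15 (adjusted p = 0.00287) and IER3 0.81 ± 0.15 (adjusted p = 0.00471), all of which turn negative with poly-A spike scaling. The IER3 call was also lost with hybridization control scaling (0.31) and the MAFF call with the mean of all its probe sets (0.49). JUNB, FOS, FOSB, DUSP1, ATF3 and BTG2 are in this list and in the cAMP list. In si-Elk1 1 rose and 3 fell (14.3%, beside 4.26% of all genes, 3.07% higher and 1.19% lower). ZFP36, which speeds the decay of AU-rich messenger RNAs, rose by 1.00 ± 0.19 (adjusted p = 0.0262), and the matricellular gene CCN2 fell by 0.67 ± 0.13 (adjusted p = 0.0316). The ZFP36 call was lost with poly-A spike scaling (0.36), with no filter and without si-Elk1 oligo A or C or any si-Ctrl replicate (adjusted p up to 0.0866), and the CCN2 call with no filter and without any si-Elk1 or si-Ctrl array (up to 0.106). Between the knockdowns 7 of the 28 were higher in si-Med23 and 2 lower (median 0.16), beside 9.54% higher and 12.2% lower of all genes. That median is negative with both control scalings. They lower these log2 fold changes by 0.32 (hybridization controls) and 0.97 (poly-A spikes). In that comparison NR4A2 was lower and NR4A1 had -0.94.

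**Figure D4:**
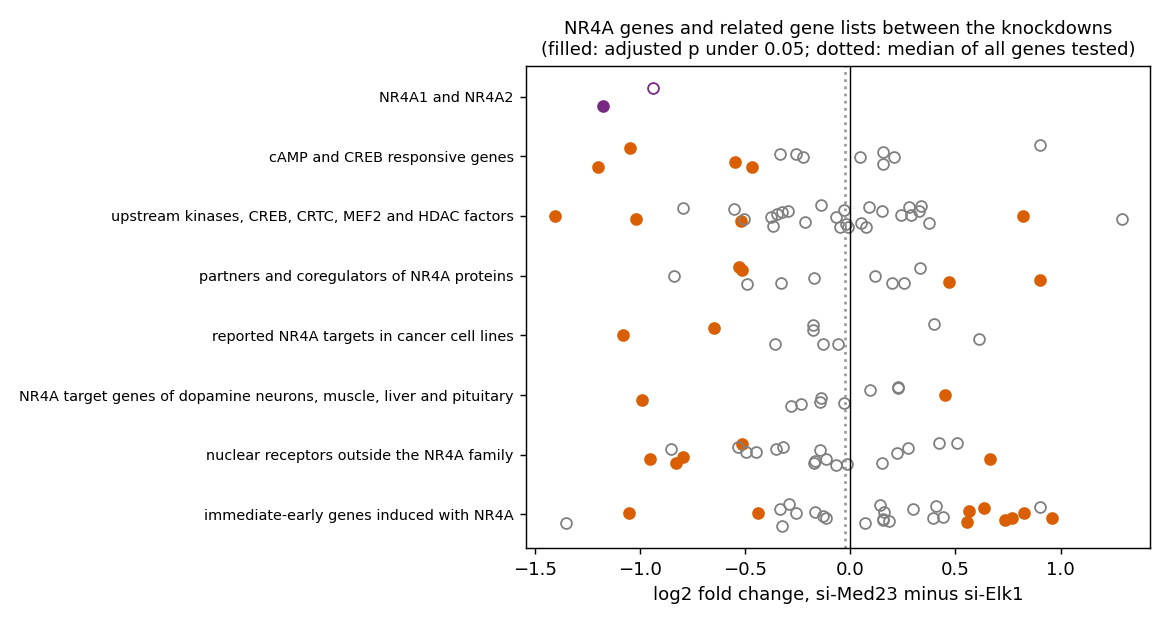
Log2 fold change in si-Med23 minus si-Elk1 for NR4A1 and NR4A2 (top line) and for the tested members of 7 related gene lists, 1 point per gene; filled points passed at an adjusted p under 0.05 and the dotted line is the median of all genes tested. NR4A2 (-1.18, filled) and NR4A1 (-0.94, open) lie left of 0, as do all 4 filled points of the cAMP and CREB list, while 7 of the 9 filled immediate-early genes lie to the right. The signals are as deposited, without scaling to the control probe sets.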

How the data were processed

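Total RNA was extracted with Trizol and hybridized as biotinylated cRNA, per the labels' protocols. The authors deposited linear intensities, 1 signal per probe set and array. RMA and MAS5 are named, per the submitters' processing notes, without role or version. The 2% trimmed mean of each array was about 500 (500.1 on each), as MAS5 scaling leaves it. No build of the processing is given in the sources used. No detection calls, scan dates or batches were used.

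Signals were taken as log2(value + 1). Of the probe sets other than 62 controls, 41091 name 1 gene, 1801 several and 11721 none here. RefSeq (GRCh38.p14) held 41037 of the identifiers and changed 0 symbols. Limma 3.58.1 in R 4.3.3 (lmFit, eBayes, two-sided) fitted all 9 arrays at once with no block, over 12616 genes or over all 54613 probe sets, and was tested on simulated data. The precision is limited by 3 arrays per group. The unit of every change is log2, computed from the deposited signals.

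The members, gene lists and tests were chosen with earlier results of these data known. Named genes were every NR4A probe set, up to 3 genes per list with the smallest p in si-Med23 minus si-Ctrl and up to 2 in si-Elk1 minus si-Ctrl, the 5 genes most correlated with each member, MED23 and ELK1. For the cAMP list those genes are also given between the knockdowns. Alternatives covered filters, probe set choice, scalings, the arrays fitted, the replicate number as a block, the pseudocount (16), a floor at the filter level, the prior, array weights and each array left out.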

Additional observations from a re-analysis of the deposited data

How the results depend on the processing

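The fall of NR4A2 in si-Med23 relative to si-Elk1 kept its direction and its call under all 21 alternatives of the gene-level test that gave a value. The following changed. For NR4A2 in si-Med23 minus si-Ctrl the call was lost with no filter, with only the 6 arrays compared, with a trended and robust prior and with the replicate block (all -0.53; adjusted p = 0.0871, 0.0541, 0.0649 and 0.0750), with a gene's probe sets averaged (-0.38), quantile normalization (-0.37) and median centring (-0.30), and with single arrays left out it ran from -0.67 to -0.41. In si-Elk1 minus si-Ctrl NR4A2 passed with array weights (0.71). For NR4A1 the stricter filter gave calls in si-Elk1 minus si-Ctrl (1.08) and between the knockdowns (-0.94), as did, between the knockdowns, a trended and robust prior (-0.94), poly-A spike scaling (-1.91) and hybridization control scaling (-1.26), with -1.23 to -0.65 when single arrays were left out. In si-Med23 minus si-Ctrl NR4A1 passed with its probe sets averaged (1.37) and turned to -1.47 with poly-A spike and -0.36 with hybridization control scaling, and ran from -0.15 to 0.43 with single arrays left out. With poly-A spike scaling most tested genes passed as lower, both in si-Med23 minus si-Ctrl and between the knockdowns, so the NR4A calls there are not specific.

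Numbers of genes called also moved. In si-Elk1 minus si-Ctrl (537 genes called) there were 119 with no filter, 937 with the stricter filter, 271 with probe sets averaged, 318 without sets ending in _x_at or _s_at, 4993 with poly-A spike scaling, 162 with the replicate block, 855 with signals raised to the filter level, 1064 with a trended and robust prior, 1594 with array weights and 109 to 498 with single arrays left out. In si-Med23 minus si-Ctrl (5023 genes called) there were 11898 with poly-A spike scaling and 3174 to 5884 with single arrays left out. Between the knockdowns (2739 genes called) there were 979 with no filter, 1783 with probe sets averaged, 5264 with median centring, 10252 with poly-A spike and 4302 with hybridization control scaling, 1074 with only the 6 arrays, 1319 with the replicate block, 4966 with array weights and 769 to 4496 with single arrays left out. The split of higher and lower genes called was 387 and 150 in si-Elk1 minus si-Ctrl, and 239 and 328 with median centring, 166 and 258 with hybridization control and 95 and 4898 with poly-A spike scaling. In si-Med23 minus si-Ctrl it was 2561 and 2462, and 4764 and 1676, 409 and 5205, and 18 and 11880 in the same order of scalings. Between the knockdowns it was 1204 and 1535, and 4711 and 553, 359 and 3943, and 33 and 10219, with 1226 and 1161 after quantile normalization.

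Of 914 alternative values for the 40 changes of list genes, 795 kept direction and side of the threshold and 23 changed sign. With poly-A spike scaling those in si-Med23 minus si-Ctrl were AXIN2 (-0.81), CTNNB1 (-0.54), ENO1 (-1.16), ENO3 (-0.69), FOSL2 (-0.58), IER3 (-0.80), JUNB (-0.46), MAFF (-0.65) and PRKD2 (-1.01). In si-Elk1 minus si-Ctrl they were AXIN2 (-0.094), IRS2 (-0.055), PRKD2 (-0.36), RXRB (-0.31) and SIK1 (-0.087), and between the knockdowns JUNB (-0.82). With hybridization control scaling they were ENO1 (-0.043) and, between the knockdowns, JUNB (-0.16), which ran from -0.076 to 0.30 with single arrays left out. Averaging a gene's probe sets gave BIRC5 0.23 in si-Med23 minus si-Ctrl, and SIK1 0.27 between the knockdowns. Without sets ending in _x_at or _s_at SIK1 had -0.066 in si-Elk1 minus si-Ctrl and 1.00 between the knockdowns, and SIK2 had 0.56 in si-Med23 minus si-Ctrl. No value came for NR4A1 or NR4A2 without those sets, for NR4A2 under the stricter filter, or for NR4A3 in any setting but no filter. The replicate block ended the calls of CCN2, ENO3, IRS2, NR1H3 and SIK1 in si-Elk1 minus si-Ctrl and of SIK1 between the knockdowns. It changed no other NR4A call. Deviations of same-numbered arrays from their group means had r from -0.18 to 0.05 across genes, which are not independent replicates. Deviations from the mean of so few arrays constrain each other, so these r cannot show whether same-numbered arrays were handled together. The cause of the changes between settings was not tested, and dim signals limit NR4A3 and the lesser NR4A1 probe sets.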
